A study of Drosophila melanogaster with 2 samples.

Results

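The eukaryotic translation initiation factors (eIFs) are the proteins that bring the ribosome to the start codon of a messenger RNA. Members were all probe sets, the groups of short oligonucleotides that read 1 transcript, whose annotation gave a single gene symbol starting with eIF. The rule took 43 probe sets for 37 genes, out of 13966 non-control probe sets and 10844 genes with a symbol of their own. The genes were ordered by factor number as eIF1 (1 gene), eIF2 (2), eIF2B (5), eIF3 (16), eIF4 (10), eIF5 (2) and eIF6 (1). The rule itself reads symbols and no measured value, though it was drawn up with earlier results of these data known. Factors without such a probe set, among them eIF1A, eIF2alpha, eIF2gamma, eIF4B and eIF4EHP, were not analysed here.

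Initiation starts when eIF2, loaded with GTP and the initiator transfer RNA, joins the small ribosomal subunit together with eIF1, eIF3 and eIF5. The eIF4 proteins bind the cap of the messenger RNA, unwind its leader and bring it to that subunit, and eIF5B joins the large subunit. The exchange factor eIF2B reloads eIF2 with GTP, and stress kinases slow this step by phosphorylating eIF2alpha, which is one of the main ways in which a stressed animal cell lowers protein synthesis.

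Poly(A) RNA from heads of adult Drosophila melanogaster males was measured on 2 Affymetrix DrosGenome1 arrays, 1 per group. For the paraquat array, males at adult day 2 were put on sucrose with 15 mM paraquat for 30 h, and their heads were taken at adult day 3. The herbicide paraquat makes superoxide inside cells, and by the labels' account it stood for oxidative stress in this study. The unexposed array came from heads at adult day 3 with no paraquat. All flies were of the inbred laboratory stock w1118 (also written w118), collected within 24 h of eclosion and kept in constant darkness at 25 °C and 70% humidity, about 200 to a bottle. The labels place the unexposed flies in food bottles and the paraquat flies on sucrose, so diet and paraquat cannot be told apart here. Flies fed plain sucrose were not analysed here. Each group was a single array of RNA from the heads of many flies, so no difference has a replicate check and no p-value is given.

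Intensities are given after each array was scaled to a common median of 825. Probe sets that reached a floor of 477 on both arrays are called measured; this floor is the 40th percentile of the arrays' mean. Ratios are paraquat over unexposed, and the value after ± is 1 SE of array error, built from control probe sets, which leaves out the spread between flies, RNA preparations and bottles. Photoreceptor markers, which define the fly head, reached the floor in 12 of 13 probe sets on the paraquat array and in 12 of 13 on the unexposed array, and neuronal markers in 11 and 9 of 14. Over all non-control probe sets, 59.9% reached the floor on the paraquat array and 59.7% on the unexposed array. Photoreceptor markers summed to an intensity of 479549 (paraquat) and 515629 (unexposed), and neuronal markers to 60079.8 and 66983.5. By summed intensity, other tissues differed more. Summed intensity was 91950 on the paraquat array and 603331 on the unexposed array over 8 fat body probe sets, and 8799 and 52963 over 26 of testis and accessory gland, of which 4 and 18 reached the floor. Muscle markers summed to 49700.5 (paraquat) and 135950 (unexposed), haemocyte markers to 13260 and 25311, gut markers to 25675 and 30475, and glial markers to 104598 and 128175. Of 6 measured glial markers, 3 were at least 2-fold lower, against 8.08% of all measured genes. The marker loco was 3.58-fold higher, where 8.03% of all measured genes were at least 2-fold higher. The 3 control probe sets for 18S ribosomal RNA, a transcript that poly(A) selection removes in part, were between 1.89-fold and 2.02-fold lower on the paraquat array. The 5′ controls of 3 transcripts read a larger percentage of their 3′ controls on the paraquat array, at 40.3 (paraquat) and 36.5 (unexposed) for GAPDH, 8.46 and 6.53 for actin, and 10.2 and 8.58 for eIF-4a. The part of these differences in the values below was not tested, and fewer cells of a type cannot be told apart from less RNA per cell.

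Most measured initiation factor transcripts read higher on the paraquat array, but not in every factor group. Of 30 measured eIF genes, 23 had ratios above 0, against 52.2% of the 6178 genes measured on both arrays. By group these were 13 of 14 eIF3 genes, 4 of 5 eIF2B, 2 of 5 eIF4, 1 of 2 eIF2 and 1 of 2 eIF5. The rest were the single eIF1 gene and the single eIF6 gene. The median log2 ratio was 0.39 over the eIF genes and 0.03 over all measured genes. Of the eIF genes, 6 (20%) were at least 2-fold higher, against 8.03% of all measured genes, and none was at least 2-fold lower, against 8.08%. All 6 (eIF6 by 1 of its probe sets, eIF2beta, eIF2Bepsilon, eIF2Balpha, eIF2Bgamma and eIF3d1) were also outside the 95% interval of array error, as were 5.7% of all measured genes. Without the demand for 2-fold, 18 eIF genes lay above that interval, where 14.9% of all genes did, and eIF2A alone lay below it, where again 14.9% did. Array error narrows with intensity, so bright genes pass the interval at smaller ratios, and these shares were not matched on brightness. At 1.5-fold the higher eIF genes were the same in number, 6 of 30, against 19.1% of all genes, and 1 (eIF2A) was lower, against 17.2%. The 30 are the genes bright enough to be read on both arrays, and the other 7 are accounted for below. Over all non-control probe sets, 59.9% reached the floor on the paraquat array and 59.7% on the unexposed array. Of the eIF probe sets, 3 reached the floor on the unexposed array alone and 0 on the paraquat array alone. These 3 have no ratio and are left out of the counts above. Those of eIF3h and eIF6 were at least 2.91-fold and 2.12-fold lower against the floor, while both genes count as higher by their other probe set. With a pseudocount in place of the floor, which keeps all 37 genes, 23 had ratios above 0, against 44.5% of 10844 genes, 4 were at least 2-fold higher, against 5.37%, and the median was 0.10, against 0.

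**Figure D1:**
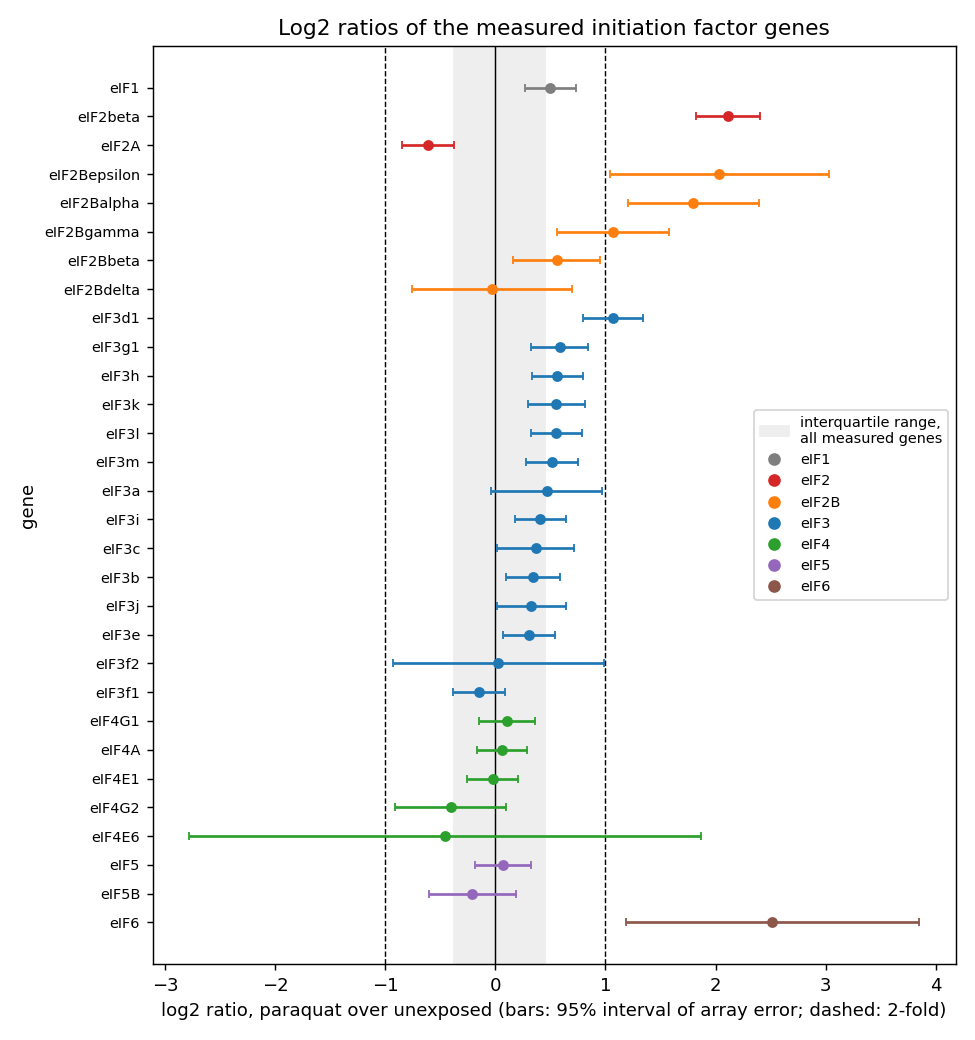
Log2 ratio of each measured initiation factor gene (horizontal axis, paraquat over unexposed) by factor group, with bars for the 95% interval of array error, dashed lines at 2-fold and a grey band for the interquartile range of all measured genes (-0.37 to 0.45). The 6 genes past the right dashed line are eIF6, eIF2beta, 3 eIF2B subunits and eIF3d1, and most eIF3 genes sit in a narrow column to the right of 0. The genes eIF4A, eIF4E1, eIF4G1, eIF5 and eIF5B sit around 0. Left of the grey band lie eIF4E6 and eIF4G2, with bars that include 0.

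The excess above 0 was also present among bright transcripts. With the floor raised to the 80th percentile, 17 of 20 eIF genes had ratios above 0, against 48.3% of 1933 genes. The eIF median stayed at 0.39, against -0.02 over all genes. Of these 20 eIF genes, 12 were eIF3 genes. The count of 2-fold differences did depend on the floor. With the floor at the 60th percentile, 4 of 27 eIF genes were at least 2-fold higher, against 5.89% of all genes. At the 80th percentile 2 of 20 eIF genes (eIF2beta and eIF3d1) were at least 2-fold higher, against 5.43% of all genes, because eIF6, eIF2Bepsilon, eIF2Balpha and eIF2Bgamma were too dim on the unexposed array to be kept.

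**Figure D2:**
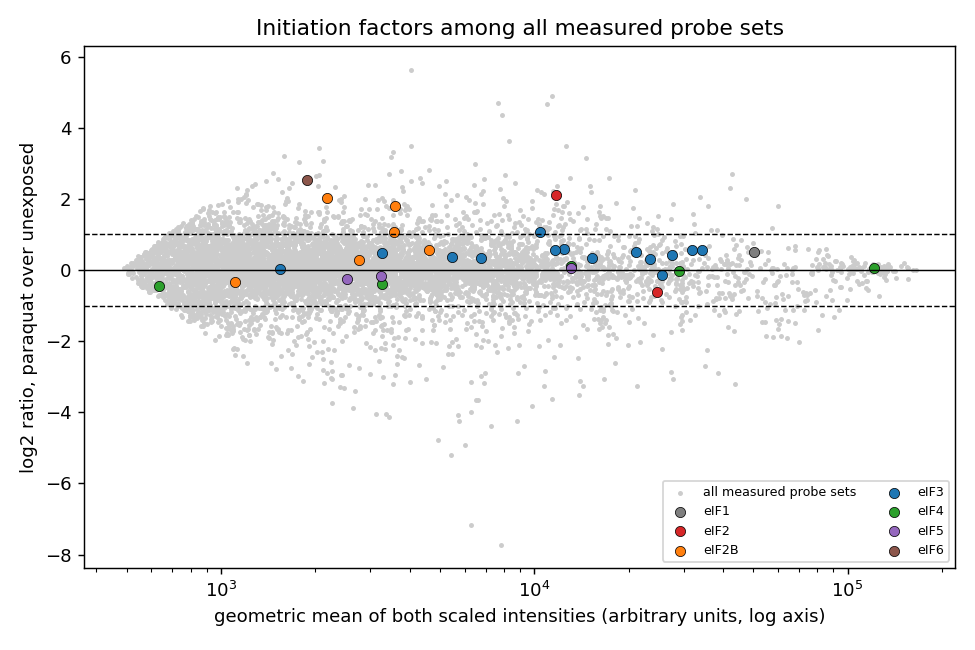
Log2 ratio (vertical axis, paraquat over unexposed) against the geometric mean of both scaled intensities (horizontal log axis) for all measured probe sets in grey and the 32 measured eIF probe sets in colour by factor group, with dashed lines at 2-fold. Most eIF3 probe sets run as a band above 0, with the bright eIF3f1 below 0 and the dim eIF3f2 near 0. Most of the eIF2B differences lie at low intensities, where array error is wider.

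The largest difference in a well-measured transcript was that of eIF2beta, the eIF2 subunit that binds eIF5 and eIF2B. Its intensity was 24335 on the paraquat array, against 5630.5 on the unexposed array, a 4.32-fold higher value (log2 2.11 ± 0.15). This ratio exceeded those of 99.1% of all measured probe sets. The gene eIF2A encodes a single-chain protein, distinct from eIF2alpha, that can deliver initiator transfer RNA without eIF2. It went the other way, with 19929 on the paraquat array against 30403 on the unexposed array, 1.53-fold lower (log2 -0.61 ± 0.12). The log2 ratios of eIF2beta and eIF2A differed by 2.72, with a 95% interval of array error from 2.35 to 3.10. In contrast to these opposite differences, the start codon selection factor eIF1 had an intermediate ratio, at 59860 on the paraquat array and 42283 on the unexposed array (1.42-fold higher, log2 0.50 ± 0.12).

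The 5 subunits of eIF2B were all measured, and their median log2 ratio was 1.07. On the paraquat array 3 of them were higher by 2-fold or more, against 8.03% of all measured genes. These 3 (eIF2Bepsilon, eIF2Balpha and eIF2Bgamma) were dim on the unexposed array, and array error is wider at low intensities. Raising the floor to percentile 80 dropped all 3 and left eIF2Bbeta (log2 0.56) as the only subunit. In the catalytic pair, eIF2Bepsilon carries the exchange activity and eIF2Bgamma binds it. The eIF2Bepsilon intensity was 4405 on the paraquat array, against 1076 on the unexposed array, 4.09-fold higher (log2 2.03 ± 0.51). For eIF2Bgamma it was 5155 on the paraquat array, against 2459 on the unexposed array, 2.10-fold higher (log2 1.07 ± 0.26). The difference between the log2 ratios of these subunits, 0.97, had an interval that included 0 (-0.15 to 2.08).

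The regulatory subunits of eIF2B, eIF2Balpha, eIF2Bbeta and eIF2Bdelta, together sense phosphorylated eIF2. Among them eIF2Balpha stood at 6704 on the paraquat array, against 1926 on the unexposed array, 3.48-fold higher (log2 1.80 ± 0.30). The values of eIF2Bbeta were 5587 on the paraquat array and 3795 on the unexposed array, 1.47-fold higher (log2 0.56 ± 0.20). The ratio of eIF2Balpha exceeded that of eIF2Bbeta by 1.24 on the log2 scale, with an interval from 0.53 to 1.95. That interval covers array error and does not allow for the choice of this pair among the subunits. The subunit eIF2Bdelta had probe sets that differed in sign, both within array error. One stood at 981 on the paraquat array and 1247 on the unexposed array (log2 -0.35 ± 0.68), and the other at 3061 on the paraquat array and 2503 on the unexposed array (log2 0.29 ± 0.29). Over the subunits of this complex, log2 ratios ran from -0.03 for eIF2Bdelta, the mean of those probe sets, to 2.03 for eIF2Bepsilon.

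**Figure D3:**
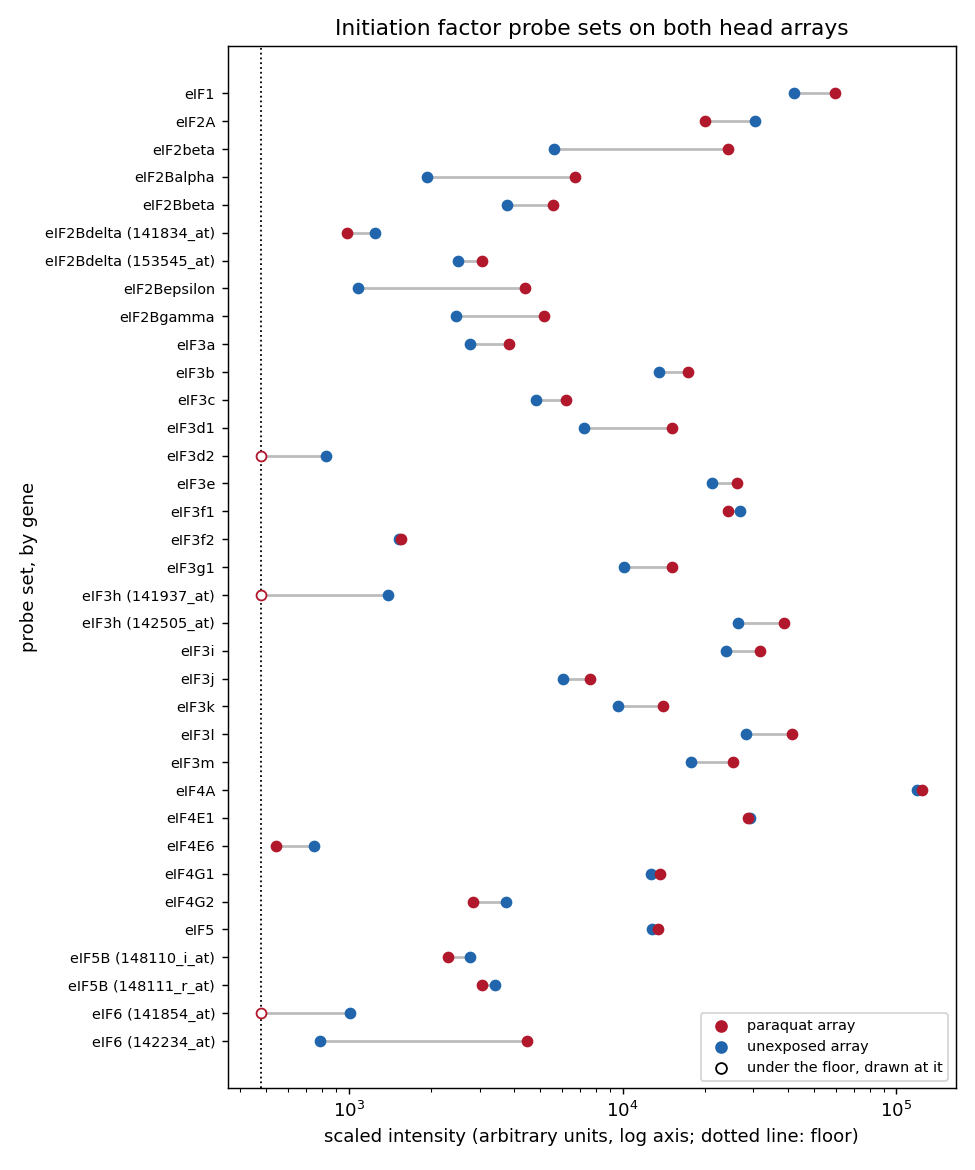
Scaled intensity (horizontal log axis) of each eIF probe set that reached the floor on at least 1 array, with red points for the paraquat array, blue points for the unexposed array, open points for values under the floor of 477, and probe set names where a gene has several. Paraquat points lie to the right for nearly all eIF3 subunits and furthest to the right for eIF6 (1 of its probe sets), eIF2beta and eIF2Bepsilon, while the points of eIF4A, eIF4E1 and eIF5 nearly coincide.

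The numerically highest ratio, that of eIF6, came from probe sets that disagreed. This factor keeps the large ribosomal subunit from joining too early and is needed to make that subunit. One probe set read 4490.5 on the paraquat array, against 784 on the unexposed array, 5.72-fold higher (log2 2.52 ± 0.68). The other read 48.1 on the paraquat array, under the floor, against 1012 on the unexposed array, which makes it at least 2.12-fold lower against the floor. Of the controls whose transcripts the flies lack (absent controls), the highest on the paraquat array was 533, and the bound against it is 1.90-fold. With a pseudocount equal to the floor in place of the floor, so that both probe sets count, the gene's log2 ratio was 0.24, and no direction is given for eIF6.

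The scaffold factor eIF3 holds the small ribosomal subunit, the cap-binding proteins and the messenger RNA together, and its subunits differed between the arrays by similar amounts. Of 14 measured eIF3 genes, 13 had ratios above 0 and 11 lay above the 95% interval of array error, against 14.9% of all measured genes. That share is not matched on brightness, and array error is narrower for bright genes. With the floor at the 80th percentile 12 of the 14 were kept, against 1933 of 6178 genes. The median log2 ratio of the eIF3 genes was 0.44. Past 2-fold, 1 gene was higher (8.03% of all measured genes) and none lower (8.08%). A log2 ratio between 0.3 and 0.6 was found for 11 of the 14 (78.6%), and for 836 of 6178 measured genes (13.5%). That range was chosen after the values were seen. Within it the folds ran from 1.24 for eIF3e to 1.499 for eIF3g1.

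Subunits of the octameric core of eIF3, which in mammals is built from the a, c, e, f, h, k, l and m subunits, are taken first. The subunit eIF3a had intensities of 3831 on the paraquat array and 2770.2 on the unexposed array (log2 0.47 ± 0.26). Its partner eIF3c had 6219.9 on the paraquat array and 4823 on the unexposed array (log2 0.37 ± 0.18). The subunit eIF3e, long known as Int6, had 26136.5 on the paraquat array and 21117 on the unexposed array (log2 0.31 ± 0.12). The ratios of eIF3c and eIF3e lay above the 95% interval of array error, whereas that of eIF3a, with an interval from -0.04 to 0.97, did not.

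The subunits eIF3k, eIF3l and eIF3m had almost the same ratio. The eIF3k intensity was 14087 on the paraquat array, against 9599 on the unexposed array (log2 0.55 ± 0.13). For eIF3l it was 41471 on the paraquat array, against 28266 on the unexposed array (log2 0.55 ± 0.12). For eIF3m it was 25347 on the paraquat array, against 17718 on the unexposed array (log2 0.52 ± 0.12). The brighter of the eIF3h probe sets joined them with 38815 on the paraquat array and 26316.5 on the unexposed array (log2 0.56 ± 0.12). The dimmer one read -520.2 on the paraquat array and 1388 on the unexposed array, at least 2.91-fold lower against the floor and 2.60-fold against the highest absent control. When both were averaged with a pseudocount the eIF3h value turned to -0.71, so its direction rests on the brighter probe set.

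The f subunit was the exception within the core. Its main gene eIF3f1 had 24272 on the paraquat array and 26901 on the unexposed array (log2 -0.15 ± 0.12), a difference within array error. The next ratio above it among bright subunits, that of eIF3e, was higher by 0.46 on the log2 scale, with an interval from 0.12 to 0.79. That interval does not allow for the choice of eIF3f1 and eIF3e by rank after the values were seen. The paralog eIF3f2 had 1556 on the paraquat array and 1527 on the unexposed array (log2 0.03 ± 0.49), and its sign changed with the normalization.

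The remaining subunits attach to the core. In the module of the b, g and i subunits, eIF3b had 17297.5 on the paraquat array and 13605.5 on the unexposed array (log2 0.35 ± 0.12). For eIF3g1, which carries an RNA recognition motif, the values were 15204 on the paraquat array and 10141 on the unexposed array (log2 0.58 ± 0.13). For the propeller protein eIF3i they were 31770.3 on the paraquat array and 23924 on the unexposed array (log2 0.41 ± 0.12). These 3 subunits lay within the same span of ratios as most of the core. The loosely bound eIF3j had 7590.2 on the paraquat array and 6052 on the unexposed array (log2 0.33 ± 0.16).

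The d subunit had the highest ratio of the complex. In human cells it can bind the cap of selected messenger RNAs. The eIF3d1 intensity was 15153 on the paraquat array, against 7229.9 on the unexposed array, 2.10-fold higher (log2 1.07 ± 0.14). It exceeded the next highest subunit, eIF3g1, by 0.48 on the log2 scale, with an interval of array error from 0.11 to 0.86. The pair was picked by rank after the values were seen, which this interval does not allow for. The eIF3d1 paralog eIF3d2 was read on the unexposed array alone, at 826, with 353 on the paraquat array. It was at least 1.73-fold lower against the floor (1.55-fold against the highest absent control). The paralog eIF3g2 read below 0 on both arrays.

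Of the cap-binding complex eIF4F, the transcripts of eIF4A, eIF4E1 and eIF4G1 differed little. The ratios of eIF4G2 and eIF4E6 were lower, at log2 -0.41 and -0.46, both within array error. The median log2 ratio of 5 measured eIF4 genes was -0.02, a value that was between 0.01 and 0.11 under the deposited scaling, quantile normalization and loess. None was 2-fold different, where 8.03% of all measured genes were higher and 8.08% lower. None lay beyond the 95% interval of array error, where 14.9% of all genes lay above and 14.9% below. Over 5 genes, such counts cannot be told apart from these shares. The cap-binding protein eIF4E1 had 28790 on the paraquat array and 29228 on the unexposed array (log2 -0.02 ± 0.12, with a sign that changed with the normalization). The scaffold eIF4G1 had 13648.5 on the paraquat array and 12671 on the unexposed array (log2 0.11 ± 0.13). For its paralog eIF4G2, which spermatocytes need to divide and differentiate, the values were 2834 on the paraquat array and 3754 on the unexposed array (log2 -0.41 ± 0.26). The difference between these paralogs, 0.51, had an interval that included 0 (-0.05 to 1.07).

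The helicase eIF4A, which unwinds the leader of the messenger RNA, was read by a member probe set and by 3 array control probe sets named for it. The member had 124397 on the paraquat array and 119266 on the unexposed array (log2 0.06 ± 0.12). The control near the 3′ end had 128143 on the paraquat array and 128227 on the unexposed array (log2 0.00 ± 0.12). The middle control had 76563 on the paraquat array and 66202 on the unexposed array (log2 0.21 ± 0.12), and the 5′ control had 13086 on the paraquat array and 10996 on the unexposed array (log2 0.25 ± 0.13). All 4 readings were within 1.19-fold of equal. The highest deposited intensities on any probe set were 167034 on the paraquat array and 167877 on the unexposed array, and whether readings this bright were compressed was not tested.

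Most of the extra eIF4E genes of the fly were below the floor in these heads. Drosophila carries several such genes beside eIF4E1, and eIF4E3 is known for its role in the testis. The probe sets of eIF4E3, eIF4E4, eIF4E5 and eIF4E7, and that of the eIF4A partner eIF4H2, were under the floor on both arrays. With eIF3g2 these make 6 genes with no reading at the floor, and eIF3d2 makes the 7th gene outside the measured set. The gene eIF4E6 was just above the floor, at 543 on the paraquat array and 745 on the unexposed array (log2 -0.46 ± 1.18). Its paraquat reading lies close to 533, the top of the absent controls there. Testis and accessory gland markers reached the floor in 4 of 26 probe sets on the paraquat array and in 18 on the unexposed array. Over all non-control probe sets the shares were 59.9% (paraquat) and 59.7% (unexposed). The part of the testis and accessory gland differences in the values of eIF3d2, eIF4E6 and eIF4G2 was not tested.

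Transcripts of eIF5 and eIF5B, which act in GTPase steps at the start codon, also differed little. For eIF5, which makes eIF2 hydrolyse its GTP, the values were 13430.4 on the paraquat array and 12799 on the unexposed array (log2 0.07 ± 0.13). For the subunit-joining factor eIF5B, one probe set had 2311 on the paraquat array and 2759 on the unexposed array, and another had 3061 on the paraquat array and 3422 on the unexposed array. Their mean log2 ratio was -0.21 ± 0.20, within array error, and the third eIF5B probe set read below 0 on both arrays.

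Genes that work with the initiation factors are given for comparison. Among cofactors with other names, 7 were measured and 5 had ratios above 0 (52.2% of all genes). At least 2-fold higher was 1 (8.03% of all genes), and the median was 0.43 (0.23 with a pseudocount). The eIF4E-binding protein gene mxt led with 3670.1 on the paraquat array, against 1649.9 on the unexposed array (2.22-fold higher, log2 1.15 ± 0.36). Paip2, which restrains the poly(A)-binding protein, was 1.74-fold higher, NAT1, an eIF4G relative without the eIF4E site, was 1.66-fold higher, and the helicase gene bel had a log2 ratio of 0.43 ± 0.42. The poly(A)-binding protein pAbp differed little, with a log2 ratio of -0.08 ± 0.08.

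In the list of eIF4E and eIF2 regulators, 8 of 10 measured genes were above a log2 ratio of 0, against 52.2% of all genes. Of these, 2 (Lk6 and PEK) were past 2-fold, against 8.03% of all genes. The median was 0.29 (0.16 with the floor at the 60th percentile or at the highest absent control, where PEK drops out). The kinase Lk6, which phosphorylates eIF4E, read 41207 and 18840.4 in its probe sets on the paraquat array, against 20905 and 8137 on the unexposed array, and its mean ratio was 2.14-fold (log2 1.10 ± 0.09). The eIF2alpha kinase PEK was near the floor, at 979.9 on the paraquat array and 479 on the unexposed array, and its ratio was within array error (log2 1.03 ± 1.21). Pp1alpha-96A, a catalytic subunit of protein phosphatase 1, had a log2 ratio of 0.84 ± 0.13, and PPP1R15, which directs that phosphatase to eIF2alpha, one of 0.57 ± 0.15. The amino acid sensing kinase Gcn2 had 2278 on the paraquat array and 2134 on the unexposed array (log2 0.09 ± 0.35). The transcription factor gene crc, the fly ATF4, had a log2 ratio of 0.16 ± 0.12. The eIF4E-binding protein Thor was not analysed here.

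For the TOR pathway, which couples nutrients to initiation, 8 of 11 measured genes had ratios above 0, against 52.2% of all genes. At least 2-fold higher were 2, against 8.03% of all genes, and the median was 0.46. Lst8 (log2 1.84 ± 1.04, dim on the unexposed array and within the 95% interval of array error) and the stress-induced TOR inhibitor Sesn (1.14 ± 0.23) were the highest. The kinases S6k (0.99 ± 0.17) and Akt (0.96 ± 0.37) came next. These lists, like the eIF genes, held no measured gene that was at least 2-fold lower, against 8.08% of all genes.

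For factors of the later steps, the medians depended on the floor. Of 7 measured elongation and termination factors, 5 had ratios above 0, against 52.2% of all genes. None was 2-fold different, where 8.03% of all genes were higher and 8.08% lower. The median was 0.13 (0.29 with the floor at the 60th percentile and 0.43 with a pseudocount, where the eIF median was 0.10). Highest were the ribosome rescue factor pelo (log2 0.51 ± 0.28) and the release factors eRF1 (0.49 ± 0.13) and eRF3 (0.45 ± 0.15). The probe sets of HBS1, the partner of pelo, disagreed. One probe set had a log2 ratio of -0.25 ± 1.06, and the other read 1303 on the paraquat array and 403, under the floor, on the unexposed array, at least 2.73-fold higher. Of 4 measured mitochondrial translation factors, all had ratios above 0, against 52.2% of all genes. None of the 4 was 2-fold different, where 8.03% of all genes were higher and 8.08% lower. The median was 0.25 (0.16 with a pseudocount). The log2 ratios were 0.78 ± 0.27 for mEFTu1, 0.28 ± 0.59 for mEFG1, 0.23 ± 0.24 for mEFTu2 and 0.10 ± 0.29 for mEFTs. Differences between these lists and the eIF genes were not tested.

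**Figure D4:**
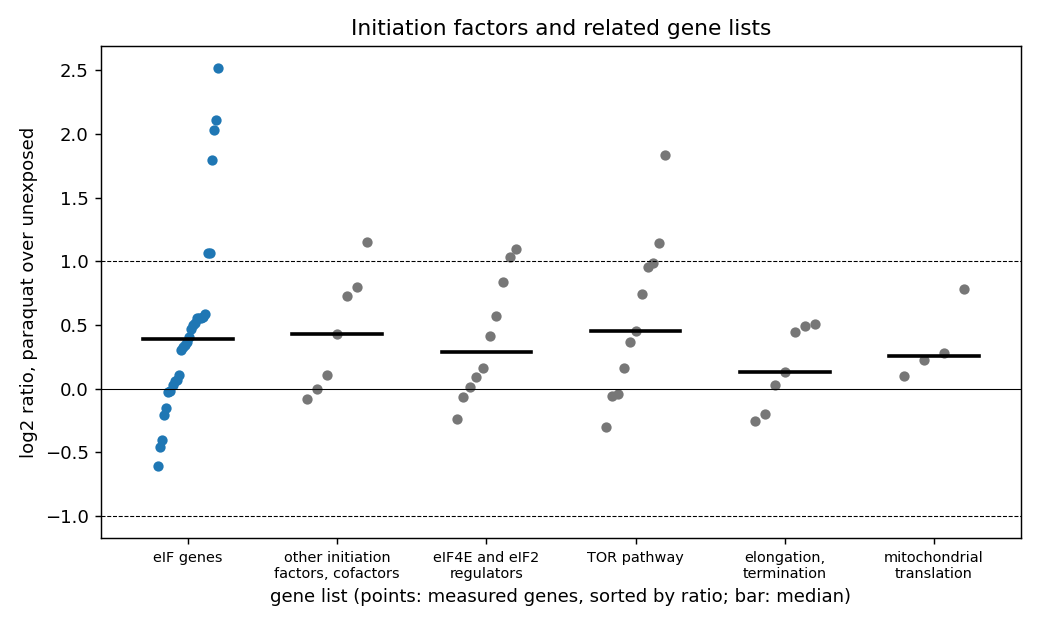
Log2 ratio (vertical axis, paraquat over unexposed) of each measured gene, sorted within its list, for the eIF genes and 5 related lists, with a bar at each median and dashed lines at 2-fold. Medians run from 0.13 (elongation and termination) to 0.46 (TOR pathway), with 0.39 for the eIF genes. The topmost point is eIF6, whose probe sets disagree.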

How the data were processed

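The deposited table holds 1 linear intensity per probe set and array, with values below 0. By the values themselves, the authors had scaled both arrays to a 2% trimmed mean of 2500. Their summarising software: not given in the sources used here. Groups were taken from the sample titles. Arrays were scaled to a common median over 13966 probe sets (factors 0.989, paraquat, and 1.01, unexposed), a floor of 477 was set, and log2 was taken with numpy 2.4.6. Several measured probe sets of a gene were averaged on the log2 scale. Values under the floor on 1 array gave a bound, and under it on both no ratio. Array error combines the SD of 46 absent control values (358) with the SD over 9 spiked-in controls of their log2 ratios (0.12), giving 1.54 at the floor and 0.19 at an intensity 10 times higher. Precision is limited by the number of arrays.

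Symbols came from a platform annotation of 2016. Of the probe sets, 12443 had 1 symbol, 327 several and 1196 none. All 37 eIF symbols were found in the RefSeq gene table of Release 6, used for names alone. Each member at or above the floor on either array was described, and of each related list the genes with the 4 largest absolute log2 ratios, with Gcn2, crc and pAbp added after their values were seen. Members and lists were chosen with earlier results of these data known. The steps were tested on simulated data. Alternatives were the deposited scaling, quantile normalization, loess (span 0.3), other floors, a pseudocount, the brightest probe set and other folds.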

Additional observations from a re-analysis of the deposited data

How the results depend on the processing

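Over 8 alternatives to the scaling, the floor and the choice of probe set, 224 of 227 recomputed eIF gene values stayed within the 95% interval of array error of the reported value. The other 3 were eIF1 with quantile normalization (log2 0.80) and, with a pseudocount in place of the floor, eIF3h (-0.71) and eIF6 (0.24), each of which then averages a dim probe set of opposite direction. Many of the 227 values could hardly move. The other floors and the brightest probe set leave the ratio of a gene with a single measured probe set unchanged. The deposited scaling shifts every ratio by the same small amount. The share that stayed is therefore no measure of how robust the values are. Genes whose sign changed under some alternative were 4: eIF2Bdelta, eIF3f2, eIF3h and eIF4E1. The count of eIF genes at least 2-fold higher was 6 under the deposited scaling, quantile normalization, loess, the highest absent control as floor and the brightest probe set, 4 of 37 with a pseudocount (5.37% of all genes), 4 of 27 with the floor at the 60th percentile (5.89%) and 2 of 20 with it at the 80th (5.43%), which keeps fewer genes. The count at least 2-fold lower was 0 under those 8 alternatives, and 1 gene, eIF2A, was at least 1.5-fold lower (17.2% of all genes). At 1.5-fold the count of higher genes was again 6, against 19.1% of all genes. The eIF median ran from 0.37 to 0.44, apart from 0.10 with a pseudocount, which adds the 7 genes that were not measured. The eIF2B median was 0.56 with the floor at the 80th percentile, where eIF2Bbeta alone was left. No paired analysis was possible because each group held 1 array. Medians of the related lists that moved by over 1.5 times stand beside their values in the report. Signal over background limits values near the floor, among them those of eIF4E6, PEK, HBS1, Lst8, Tsc1, eIF6, mEFG1 and eIF2Bepsilon.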
